A study of Rattus norvegicus with 80 samples.

Results

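This account describes 242 genes of the rat mammary gland that marked wildtype adipocytes, out of 32883 genes counted by RNA sequencing. A gene was a member when its mean level in 3 wildtype adipocyte libraries was at least 10 CPM (counts-per-million, the count of a gene divided by the library total) and, after adding 0.1 CPM to each mean, at least 16 times its mean in both wildtype mammary epithelial cells (MECs) and wildtype fibroblasts. Of 8364 genes at or above 10 CPM in wildtype adipocytes, 88 passed the fold against MECs only and 101 against fibroblasts only. The members were thus selected on the levels of wildtype adipocytes, MECs and fibroblasts, so the contrast among these 3 groups is a description and no test of it is given. The 3 members closest to the fold threshold stood at 16.1, 16.2 and 16.3 times the higher of the other cell types and the 3 genes just outside at 15.9, 15.8 and 15.7 times. Among genes past the fold, the 3 members closest to the level threshold had 10.4, 10.5 and 10.6 CPM and the 3 genes just outside had 9.89, 9.66 and 9.65 CPM.

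The study profiled 80 libraries in 19 groups. Normal tissue was taken from wildtype rats and from the Nf1-mutated lines IF, PS and IFPS, names that the labels do not spell out. Adipocytes, MECs and fibroblasts had 3 libraries each in wildtype, IF, PS and IFPS animals. Whole mammary pads had 6 wildtype, 3 IF, 6 PS and 6 IFPS libraries, and primary tumors had 5 IF, 9 PS and 9 IFPS libraries. No wildtype tumor is among the samples used here, and the labels give no age, treatment or tumor stage. Pads and tumors were homogenised fresh and their RNA was isolated with Trizol, as was that of mature adipocytes, whereas MECs and fibroblasts were cultured close to confluency and extracted on columns. Flow sorting is given for the normal cell types in the series text. Cell type and culture therefore cannot be told apart in the choice of the members, and whole pad and isolated adipocytes differ in how the tissue was handled as well as in their cells. The labels do not say whether the libraries of a group came from separate animals, so p-values measure only the spread between these libraries, which may be technical.

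Adipocytes store triglyceride in a lipid droplet, release fatty acids between meals and secrete hormones. In the mammary gland they form the fat pad, in which the epithelial ducts are embedded together with vessels, fibroblasts and immune cells. Nf1 encodes neurofibromin, which lowers Ras signaling by speeding the hydrolysis of GTP on Ras. The counts carry Ensembl identifiers, and 0 of them matched the reference table of 47357 rat genes, so members are called by identifier. What each member does, its promoter and protein sequence, known adipocyte markers, markers of other cell types and the level of Nf1 were not analysed here. The name adipocyte-enriched therefore rests on the labels of the sorted libraries and not on known markers.

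Library totals lay between 17344717 and 37293141 counts. One library stood apart from its group. IFPS tumor replicate 6 carried 93532 CPM of member transcripts, while the other 8 IFPS tumors carried between 4574 and 15058 CPM. Counts and medians that this library moves are therefore also given without it. In these bulk samples, a change in cell makeup and a change in the level per cell cannot be told apart. This holds for every pad and tumor result, and for members that rose as well as those that fell.

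**Figure D1:**
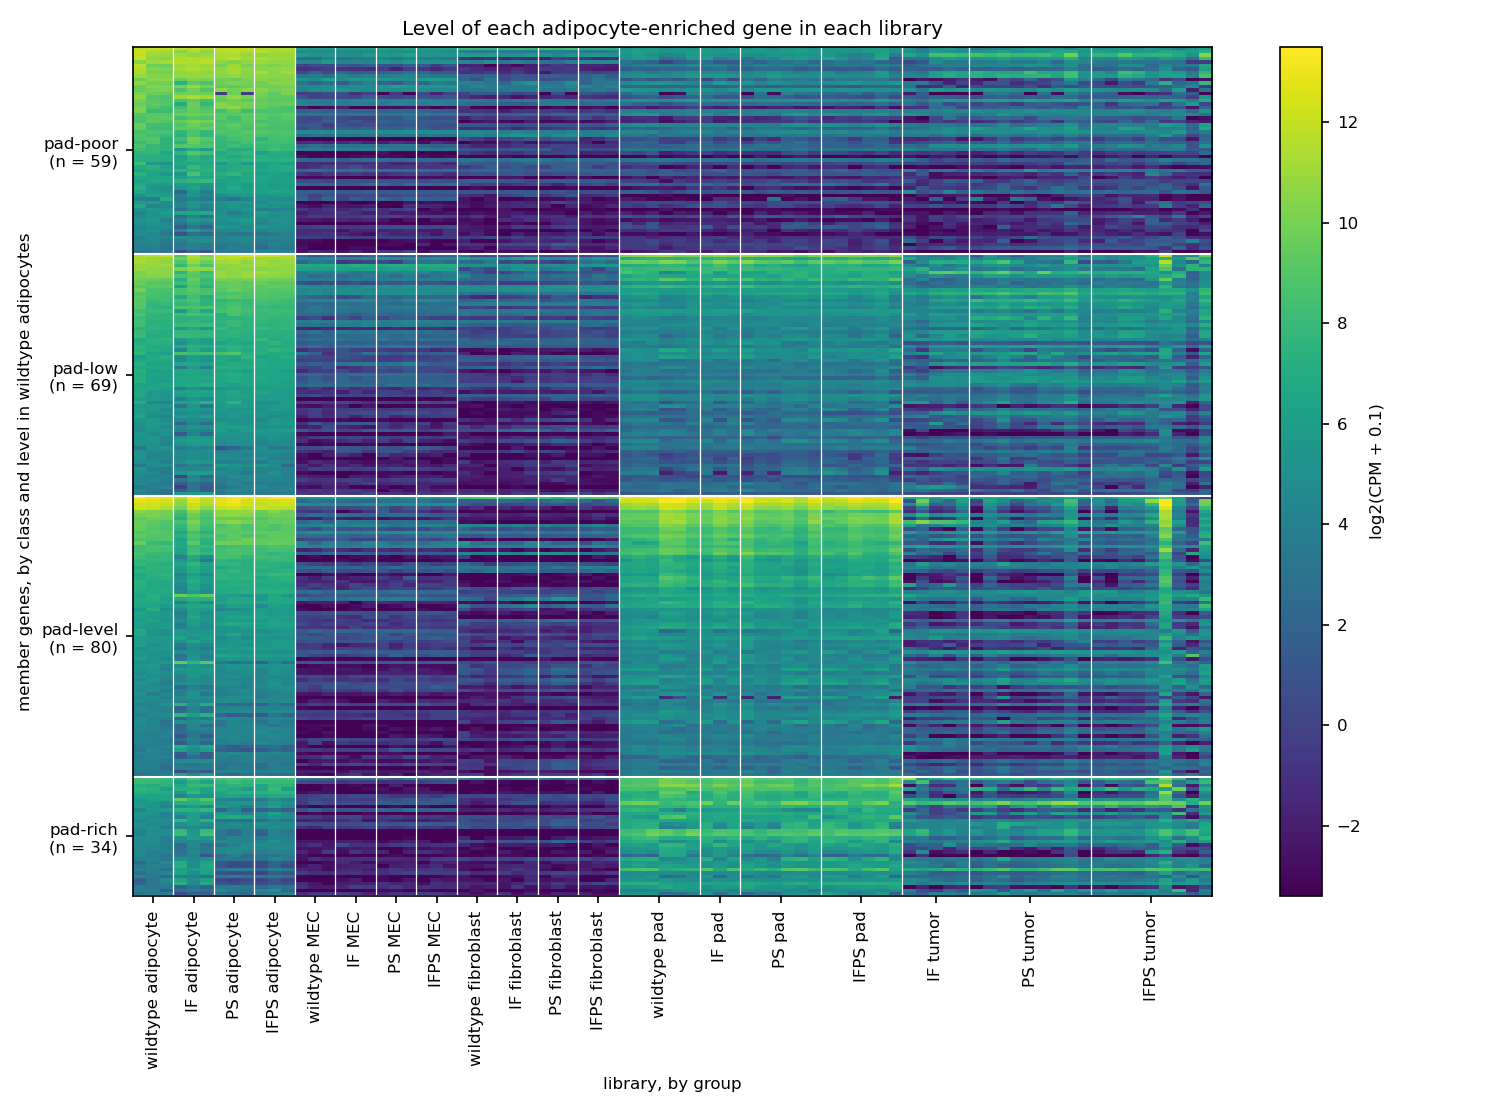
Heat map of log2(CPM + 0.1) of the 242 members (rows, ordered by class of pad level) in all 80 libraries (columns, by group). Adipocyte columns are high throughout, MEC and fibroblast columns low, pads high only in the lower classes of the map, and tumors low there except IFPS tumor replicate 6, the tumor with 93532 CPM of members.

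The members together took a large share of the adipocyte transcriptome and a small one of tumors. In wildtype adipocytes they summed to 117888, 90486 and 82001 CPM, between 8.20% and 11.8% of all counts. The sums were 60099, 104339 and 71560.0 CPM in IF adipocytes, between 96444 and 117783 CPM in PS adipocytes and between 92455 and 94824 CPM in IFPS adipocytes. IF adipocytes thus had the lowest 2 sums of the 12 adipocyte libraries and, in replicate 2, the third highest. In MECs of all lines the members summed to between 1109 and 1507 CPM and in fibroblasts to between 1141 and 1442 CPM.

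Whole pads lay between adipocytes and the cultured cells. The lowest, median and highest sums were 33477, 40218 and 72024 CPM in 6 wildtype pads, 39373, 44806 and 63063 CPM in 3 IF pads, 23903, 34705 and 59824 CPM in 6 PS pads, and 29556, 38274 and 76340.2 CPM in 6 IFPS pads. IF tumors ranged from 4598 to 6983 CPM with a median of 6198 CPM, PS tumors from 4162 to 13015 CPM with a median of 5791 CPM, and the 8 IFPS tumors other than replicate 6 had a median of 5876 CPM. Every tumor but IFPS tumor replicate 6 lay below every pad. The number of members at or above 10 CPM followed the same order. It was 203 to 232 in IF, 217 to 223 in PS and 214 to 229 in IFPS adipocytes. Pads had between 153 and 176 and these 22 tumors between 62 and 139. Wildtype adipocytes had 227 to 239, but the rule itself required a mean of at least 10 CPM there.

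The enrichment was measured again in libraries that the rule did not use. In the mutated lines the members were again much higher in adipocytes than in the other cell types of the same line. In IF and in PS rats, 242 of 242 members were called higher than in both MECs and fibroblasts (edgeR quasi-likelihood test, adjusted p under 0.05 in each contrast), and in IFPS rats 240 of 242 were. Over all 15928 genes tested, 22.7% were called so for IF, 24.9% for PS and 26.8% for IFPS. For the single contrasts with MECs, 33.8% of all genes were called higher for IF, 35.6% for PS and 35.7% for IFPS, and for fibroblasts these shares were 34.7%, 34.4% and 34.3%. The median log2 difference of the members lay between 6.74 and 7.38 over the 6 contrasts, whereas that of all genes lay between -0.06 and -0.03. Members were chosen for a high level in adipocytes, so a high count of calls here shows that the levels recur in other lines, and no more.

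The size of the enrichment was smaller in the mutated lines than in the wildtype libraries that chose the members. Both thresholds of the rule, applied within a line, were met by 172 members in IF, by 181 in PS and by 207 in IFPS. The smaller of the 2 folds of a member had a median of 53.6 in wildtype libraries, 40.6 in IF, 39.3 in PS and 48.0 in IFPS ones. Wildtype values were selected to be high, so this drop was not tested.

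The 2 members that failed in IFPS were both of low level there, and they are named because their values stood out. ENSRNOG00000003171 had 3.89, 6.19 and 3.09 CPM in IFPS adipocytes and 3.10, 3.32 and 4.27 CPM in IFPS MECs, and the groups overlapped (log2 difference 0.78 ± 0.50 SE, adjusted p = 0.156). The same gene had 163, 148 and 221 CPM in IF adipocytes and 17.7, 47.8 and 55.5 CPM in wildtype adipocytes. ENSRNOG00000017676 missed the threshold against IFPS fibroblasts (log2 difference 1.19 ± 0.63 SE, adjusted p = 0.0908), although its libraries did not overlap. IF adipocytes were the highest of the 4 lines for both genes.

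The members separated widely when the wildtype pad was set against wildtype adipocytes. By the ratio of the 2 means, each with 0.1 CPM added, 59 members lay below 1/16 in the pad and are called pad-poor, 69 between 1/16 and 1/2 are called pad-low, 80 between 1/2 and 2 are called pad-level, and 34 above 2 are called pad-rich. These limits were chosen after the values were seen, and wildtype pads and adipocytes serve only to define the classes. Pad-poor members were the most abundant in adipocytes, with a median level of 243 CPM there against 2.59 CPM in wildtype pads. Pad-low members had medians of 93.9 and 16.1 CPM, pad-level members 56.7 and 41.0 CPM, and pad-rich members 24.4 and 113 CPM. Of the 20 members most abundant in wildtype adipocytes, 9 were pad-poor, 7 pad-low and 4 pad-level.

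**Figure D2:**
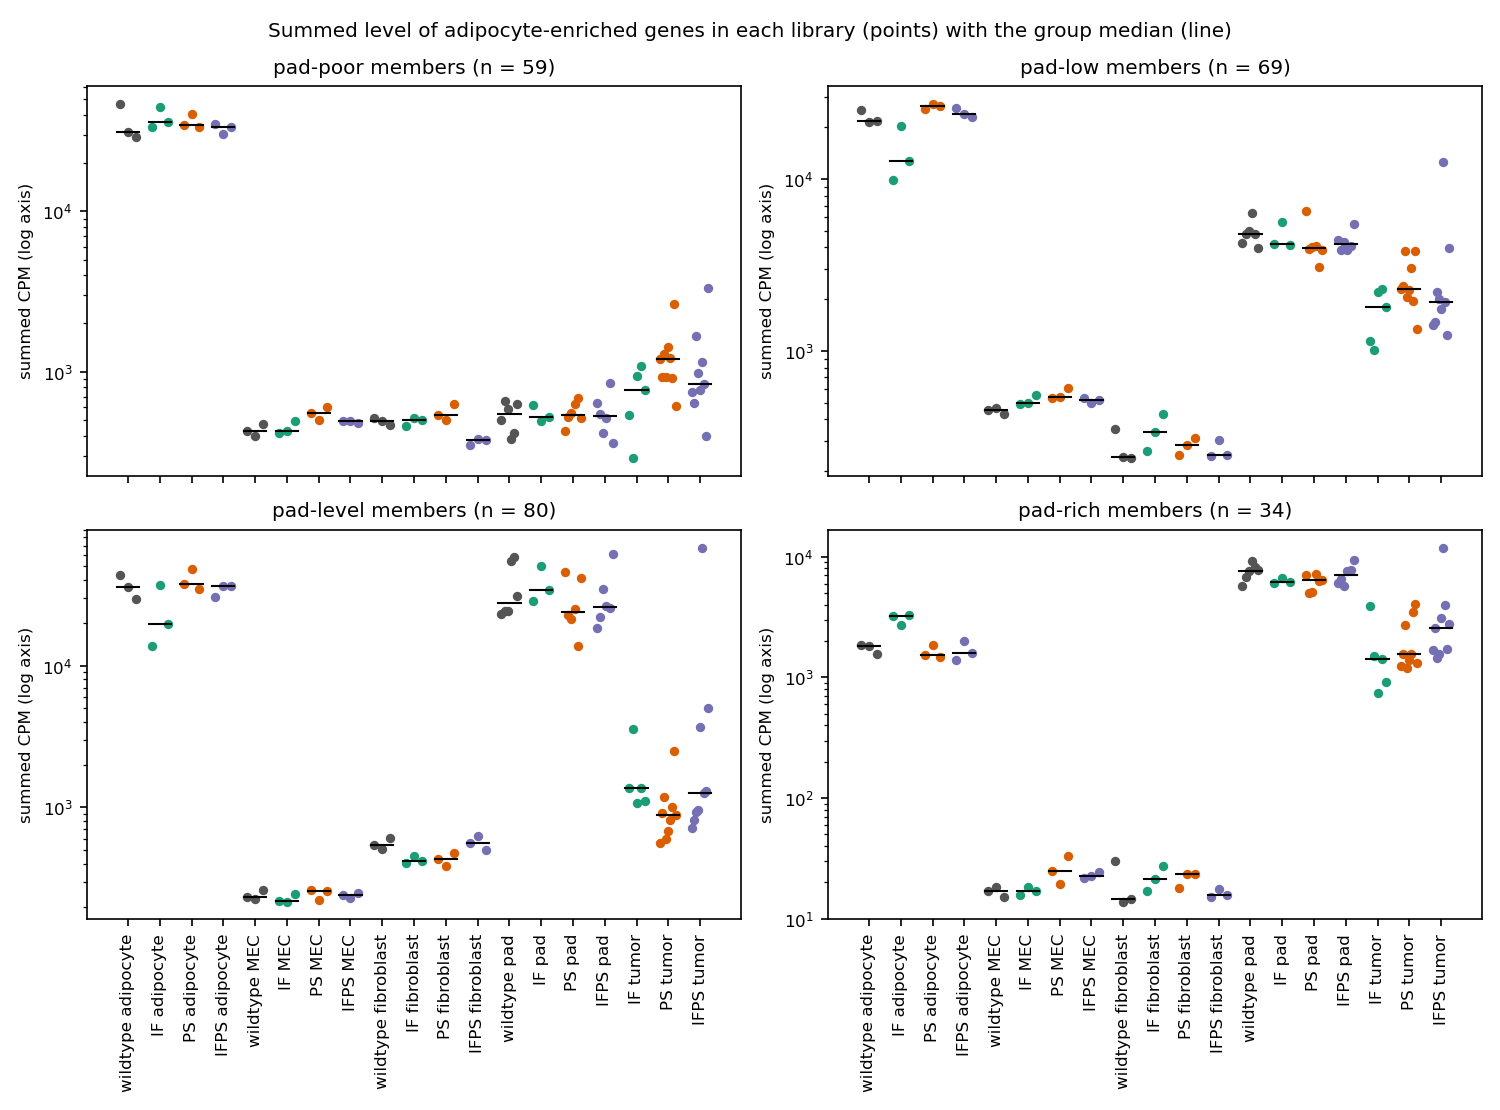
Summed CPM (log axis) of the members of each class, 1 panel per class, with 1 point per library and a line at the median of each group. Pad-poor members lie near 29158 to 46915 CPM in wildtype adipocytes and at 358 to 857 CPM in pads, pad-rich members are higher in pads than in adipocytes, and IFPS tumor replicate 6 lies above every pad in all 4 panels, with 67946 CPM of pad-level members.

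The classes recurred in mutated animals. Pad-poor members summed to between 358 and 857 CPM over all 21 pads, while adipocyte sums ran from 29158 to 46915 CPM for wildtype, 33411 to 44457 CPM for IF, 33778 to 40373 CPM for PS and 30172 to 34893 CPM for IFPS. Pad and adipocyte sums of this class differed by more than 10 times in every pair of libraries. Pad-rich members ran the other way, with sums between 5049 and 9476 CPM in pads and between 1386 and 3317 CPM in adipocytes. In the mutated lines, pads and adipocytes with title numbers 4 to 12, 9 of each, were compared by edgeR over 16151 genes.

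In that comparison, 174 of 242 members (71.9%) were lower in the pad and 28 (11.6%) were higher, against 36% and 46.1% of all genes. The median log2 difference was -1.88 for the members and 0.15 for all genes. By class, 59 of 59 pad-poor, 68 of 69 pad-low and 47 of 80 pad-level members fell in pads, with median log2 differences of -6.82, -3.30 and -0.89. Of 34 pad-rich members 27 rose and 0 fell, with a median of 1.28, and 1 pad-level member rose. Isolation of adipocytes and cell makeup cannot be told apart in this comparison.

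The largest falls were close to loss of signal. ENSRNOG00000002460, with levels from 16 to 66.1 CPM in the 9 mutated adipocyte libraries, had 1 count in the 9 pads against 10793 counts in the adipocytes. Relative to library totals this is a ratio of 9731 (95% interval 1746 to 384395, counting error only). ENSRNOG00000057443, from 70.2 to 193 CPM in the same adipocytes, had 6 counts in the 9 pads against 34289, a ratio of 5153 (95% interval 2367 to 14041, counting error only). Both genes were also at or under 1.22 CPM in every tumor, and the 2 groups were fully separate for each.

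Among members that rose in pads, ENSRNOG00000032844 had 63.0, 67.2 and 79.5 CPM in IF, 10.2, 17.1 and 15.2 CPM in PS and 6.84, 15.9 and 10.7 CPM in IFPS adipocytes. Its 9 pads of title numbers 4 to 12 had 477, 117 and 398 CPM in IF, 119, 239.5 and 152 CPM in PS, and 412, 389 and 128 CPM in IFPS. The groups did not overlap, and the log2 difference was 2.91 ± 0.29 SE (edgeR adjusted p = 2.06e-07). ENSRNOG00000018735 ran in parallel, from 23.8 to 196 CPM in adipocytes and from 207 to 962 CPM in pads (log2 difference 2.37 ± 0.30 SE, adjusted p = 3.6e-06). For both genes IF adipocytes were the highest of the 4 lines, and their tumor levels remained at or above 81.4 and 131 CPM.

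Adipocytes of the 3 mutated lines were next compared with one another, in libraries outside the rule. IF adipocytes differed from both others, and PS and IFPS adipocytes were not told apart. Between PS and IF adipocytes, 71 of 242 members (29.3%) were higher in PS and 38 (15.7%) lower, against 24.8% and 27.9% of all 14304 genes tested. Between IFPS and IF adipocytes 51 members were higher in IFPS and 43 lower, against 24.6% and 28.3% of all genes. Both comparisons share the 3 IF libraries. Median log2 differences of the members were 0.26 and 0.15, and those of all genes were 0.01 and 0.00. Between IFPS and PS, edgeR called 0 members higher and 0 lower, against 0.00699% and 0.021% of all genes, with 11 of 242 at an unadjusted p under 0.05 against 5.82% of all genes, while DESeq2 called 2 lower (0.336% of all genes).

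Of these 4 counts, only that of members higher in PS was a larger share than that of all genes, and it rested on single libraries. It was 112 without IF adipocyte replicate 2, 33 without IF adipocyte replicate 3 and 42 without PS adipocyte replicate 2. The count higher in IFPS was 104 without IF adipocyte replicate 2. Pad-level sums show the same spread, at 13646, 36818 and 19598 CPM in IF adipocyte replicates 1, 2 and 3 against 30230 to 48174 CPM in PS and IFPS adipocytes.

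IF adipocytes were lower than both other mutated lines for 48 of 242 members (19.8%), against 20.5% of all genes tested, and 20 of the 48 were pad-level and 19 pad-low. They were higher than both for 34 members (14%), against 25% of all genes, and 14 of the 34 were pad-rich. Neither share was above that of all genes. The classes differed in direction. Of 34 pad-rich members 6 were higher in PS than in IF and 15 lower. Of 80 pad-level members 28 were higher and 9 lower, and of 69 pad-low members 27 and 6. Over all genes 24.8% were higher and 27.9% lower, with a median log2 difference of 0.01, so all genes had little direction. Pad-level and pad-low members were more often higher in PS, and pad-rich members more often lower. Pad-rich members summed to between 2735 and 3317 CPM in IF adipocytes and to between 1386 and 2012 CPM in PS and IFPS adipocytes, with no overlap. Wildtype adipocytes, at 1557 to 1850 CPM, defined the class by their low level and are not counted in this comparison. Whether other cells moved with this group was not tested, since markers could not be matched.

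ENSRNOG00000017676 was one of the members higher in IF adipocytes. It had 158, 23.7 and 112 CPM in IF, 2.33, 1.27 and 2.12 CPM in PS, 1.44, 2.18 and 1.38 CPM in IFPS and 3.71, 10.9 and 18.6 CPM in wildtype adipocytes. The IF libraries lay above all others, with a log2 difference of -5.62 ± 0.73 SE for PS minus IF (edgeR adjusted p = 0.000196) and -5.87 ± 0.74 SE for IFPS minus IF (adjusted p = 0.000157). Pads of all lines held this gene at 63.7 to 167 CPM.

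ENSRNOG00000022910 had the same pattern, at 98.9, 29.0 and 73.3 CPM in IF adipocytes, 1.21, 0.821 and 1.5 CPM in PS and 0.963, 2.28 and 0.934 CPM in IFPS. Its log2 differences were -5.79 ± 0.76 SE for PS minus IF (adjusted p = 0.000206) and -5.60 ± 0.75 SE for IFPS minus IF (adjusted p = 0.000211). Wildtype adipocytes lay between, at 3.09, 7.97 and 23.8 CPM, all below IF and above PS and IFPS. Both genes were pad-rich, and IF adipocyte replicate 2, the library with the highest member sum of its line, held the least of each among IF adipocytes.

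In the opposite direction, ENSRNOG00000054524 had 2.64, 9.89 and 4.49 CPM in IF adipocytes, 49.1, 35.3 and 26.1 CPM in PS, 44.3, 34.2 and 30.6 CPM in IFPS and 21.8, 28.9 and 32.6 CPM in wildtype. IF lay below every other library (PS minus IF 2.68 ± 0.43 SE, adjusted p = 0.000574, IFPS minus IF 2.62 ± 0.42 SE, adjusted p = 0.000606). ENSRNOG00000029668 had 1.28, 4.38 and 1.93 CPM in IF against 11.9 to 12.6 CPM in PS and 15.2 to 19.9 CPM in IFPS (2.27 ± 0.36 SE, adjusted p = 0.000585, and 2.76 ± 0.36 SE, adjusted p = 0.000196). Both of these were pad-poor and stayed at or below 4.20 CPM in all pads.

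**Figure D3:**
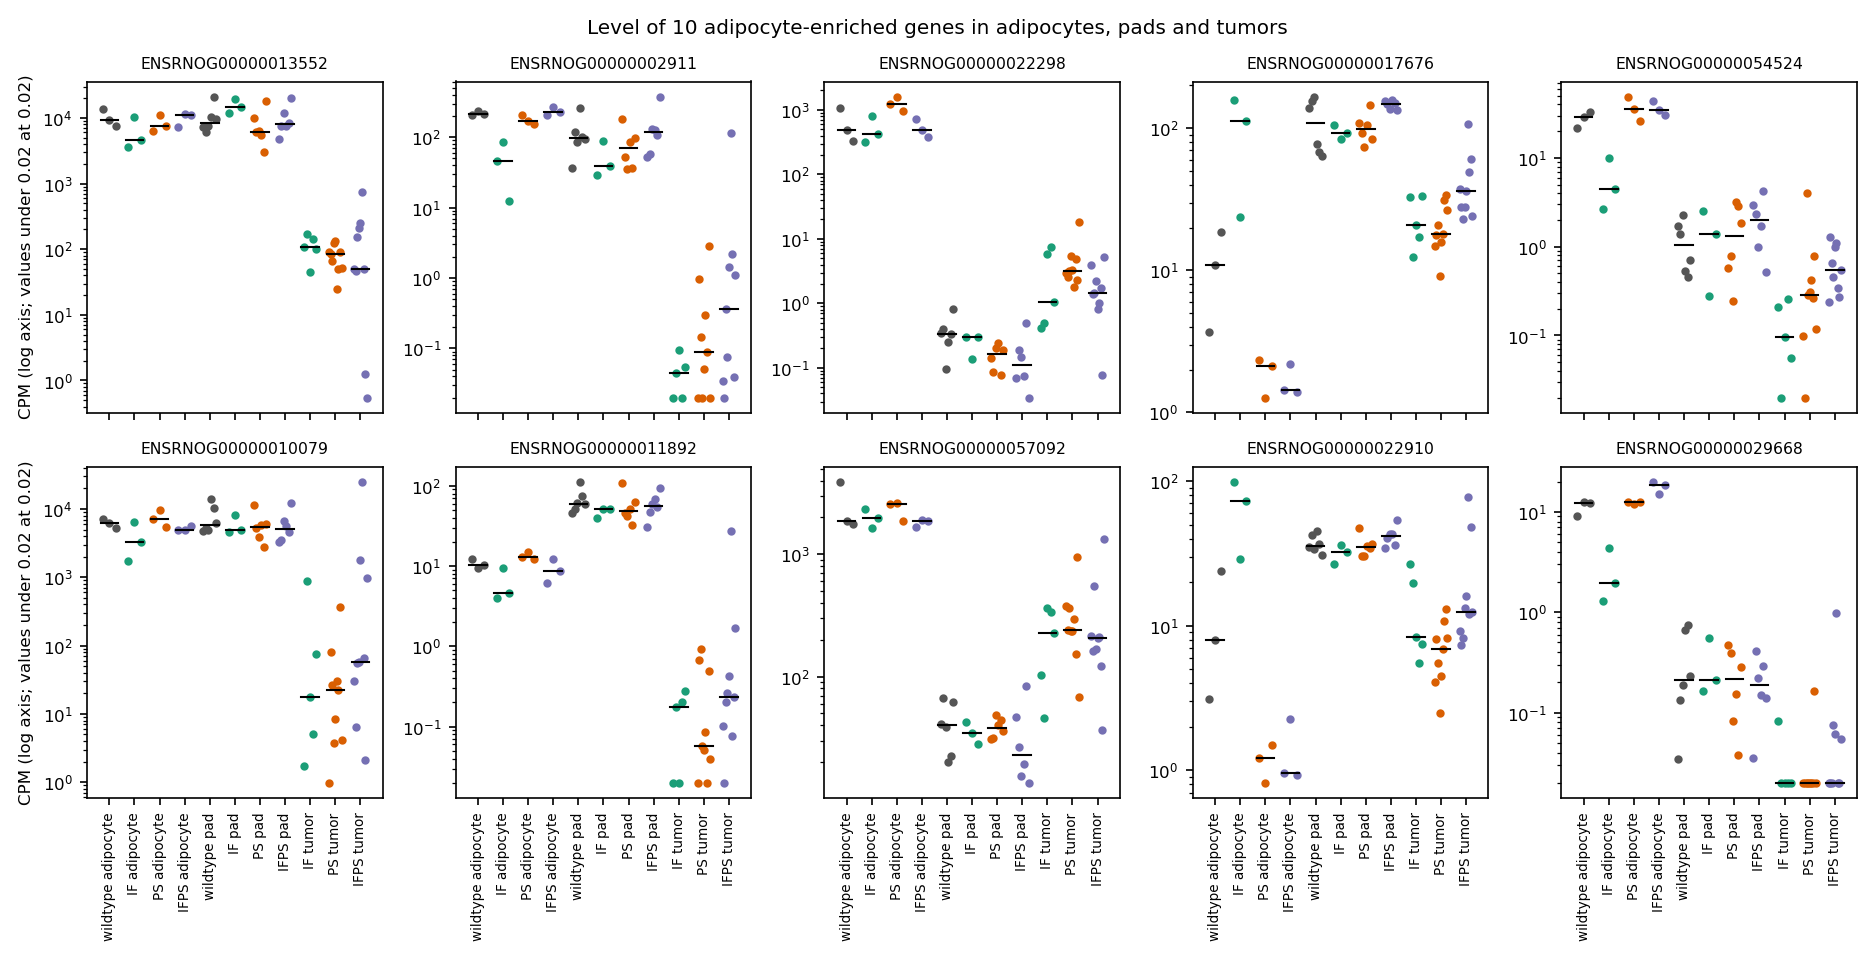
CPM (log axis, values under 0.02 drawn at 0.02) of 10 identifiers in adipocytes, pads and tumors of each line, 1 point per library. ENSRNOG00000017676 is high in IF adipocytes and all pads and lies between 1.27 and 2.33 CPM in PS adipocytes, ENSRNOG00000022298 reaches 1609 CPM in adipocytes and at most 0.817 CPM in pads, and ENSRNOG00000013552 drops from at least 3063 CPM in pads to at most 749 CPM in tumors.

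Against wildtype adipocytes, whose levels chose the members, line differences are given as values only. The median log2 difference was -0.22 for IF, 0.05 for PS and -0.05 for IFPS, against 0.01, 0.00 and 0.00 over all genes. In IF the pad-level members had a median of -0.52 and the pad-rich members 0.30.

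ENSRNOG00000019050, the member with the largest range within an adipocyte group (chosen after its values were seen), was nearly absent from single PS libraries. It had 1166, 754 and 732 CPM in wildtype, 867, 921 and 880.1 CPM in IF and 1036, 571 and 1167 CPM in IFPS adipocytes. In PS adipocytes it had 0.777 CPM in title number 10, 887 CPM in number 11 and 0.617 CPM in number 12. The 9 libraries of these 3 lines and number 11 were thus all at or above 571 CPM, and PS numbers 10 and 12 stood far below.

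The same title numbers were low in the other PS tissues. PS MECs had 0, 16 and 0 counts and PS fibroblasts 0, 51 and 0 counts of ENSRNOG00000019050 in numbers 10, 11 and 12, and PS pads of these numbers had 0, 207 and 1 counts. Every other MEC and fibroblast library had at least 4 counts. Among pads, wildtype numbers 13 and 14 also had 0 and 1 count, whereas the remaining 17 pads had from 79 to 505 counts. Tumors held from 0 to 15.6 CPM, with libraries at 0 in all 3 lines. PS and IF adipocytes overlapped for this gene, and the log2 difference was -1.53 ± 1.68 SE (edgeR adjusted p = 0.464). Whether a title number marks an animal is not given in the labels.

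Between lines, the members of whole pads were not told apart. Of 235 members tested among 16384 genes, edgeR called 0 members of IF pads, 0 of PS pads and 0 of IFPS pads different from wildtype pads, with the set of title numbers as a covariate. Of all genes, 0% were called for IF pads, 0.0061% for PS pads and 0% for IFPS pads. At an unadjusted p under 0.05 there were 3, 11 and 18 members, and 1.87%, 10.2% and 7.92% of all genes. DESeq2 called 0, 1 and 2 members and 0%, 0.495% and 0.128% of all genes. The 3 comparisons share the wildtype pads. Median log2 differences of the members were 0.02 for IF, -0.17 for PS and -0.15 for IFPS, against -0.01, 0.00 and 0.01 for all genes. Among 80 pad-level members, 68 lay below 0 for PS pads, 58 for IFPS pads and 42 for IF pads. Among 52 pad-poor members tested, the counts were 28, 29 and 19, by the same order of lines. These counts were not tested, and the share of all genes below 0 is not given here.

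Single members varied widely among pads of one line, as in ENSRNOG00000038286 and ENSRNOG00000016535, both chosen after their values were seen. The first had 77.0, 52.1, 8.81, 32.2, 77.9 and 0.104 CPM in IFPS pad replicates 1 to 6, and 44.0, 0.277 and 28.7 CPM in the 3 IF pads. The second had 43.2, 22.2, 5.09, 7.35, 39.1 and 0.173 CPM and 13, 0.104 and 6.57 CPM in the same libraries. Both were lowest in IFPS pad replicate 6 and IF pad replicate 2, the pads with the highest member sum of their line. In adipocytes of all lines they stayed between 9.18 and 69.5 CPM.

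Tumors were compared with pads of their own line, and 238 of the 242 members passed the filter on low counts among 17227 genes. The other 4 were pad-poor. In IF tumors 101 members fell and 5 rose (1 when any of the 3 IF pads was left out), in PS tumors 128 fell and 30 rose, and in IFPS tumors 36 fell and 28 rose. Of all genes, 13.2% fell in IF tumors, 20.8% in PS tumors and 12.3% in IFPS tumors, while 10.1%, 18.1% and 15.6% rose. Falls thus exceeded the share of all genes in IF (42.4% of members) and PS (53.8%) and lay near it in IFPS (15.1%).

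The IFPS count depended on 1 library. Without IFPS tumor replicate 6, 112 members fell and 32 rose in IFPS, against 18.1% and 19.3% of all genes. In the same fit 114 members fell in IF and 129 in PS tumors, against 15.5% and 22.3% of all genes. The median log2 difference of the members was -1.81 for IF, -1.39 for PS and -0.58 for IFPS, or -1.08 without that library, while all genes had 0.05, 0.01 and 0.09. Placing the 1 member with no count in all tumors or pads of IF, and likewise of IFPS, at its bound left these medians as they were.

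**Figure D4:**
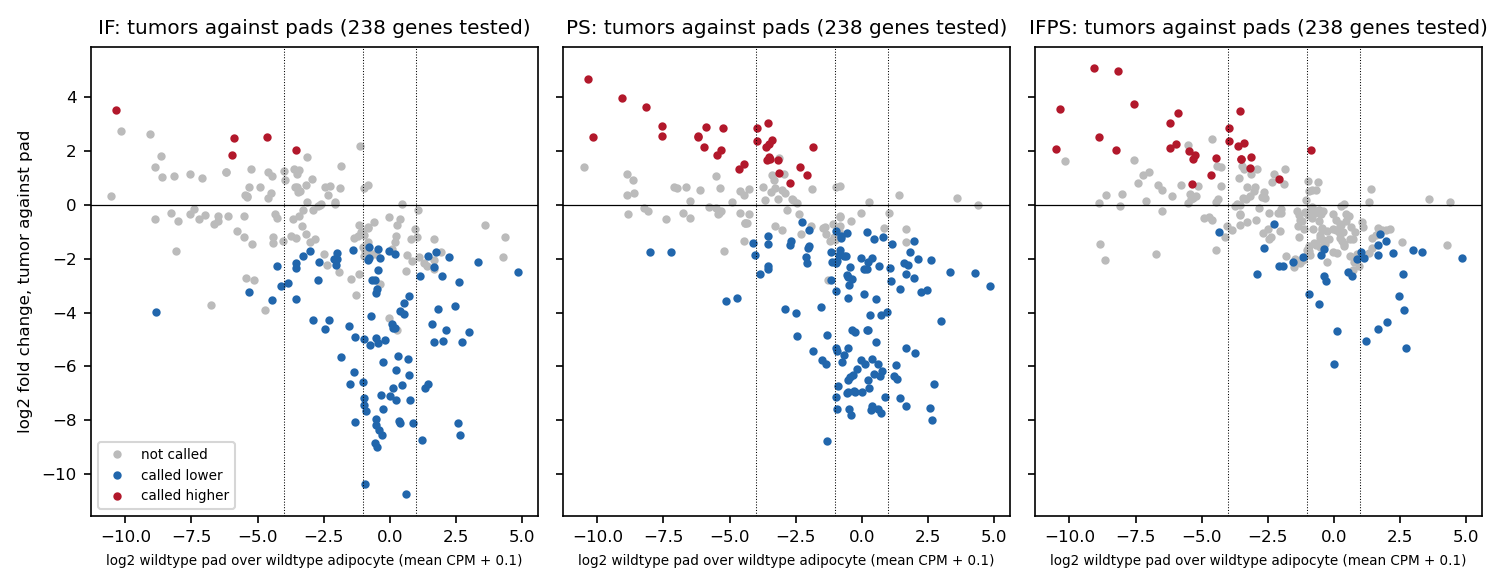
Log2 difference of each member between tumors and pads of a line (y axis, edgeR, 1 panel per line) against its log2 ratio of wildtype pad to wildtype adipocyte (x axis), with dotted lines at -4, -1 and 1 between the classes and calls lower in blue, higher in red and none in grey. Falls crowd on the right, among the pad-level and pad-rich members, and rises on the left, among the pad-poor and pad-low members, with fewer falls in IFPS, where 36 members were called lower.

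By the median, the fall was largest in pad-level members, followed by pad-rich members, except in IFPS with all 9 tumors, where the order was the reverse. Of 80 pad-level members, 52 fell in IF and 69 in PS, with medians of -3.79 and -4.02. In IFPS 11 fell with all 9 tumors (median -1.02) and 58 fell without replicate 6 (median -3.07). Of 34 pad-rich members, 22 fell in IF, 28 in PS and 17 in IFPS, or 27 in IFPS without replicate 6, and 0 rose in any line. Their medians were -2.44, -2.65 and -1.50, the last being -2.10 without replicate 6.

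Pad-poor members did not follow. Of 55 tested, 5 fell and 4 rose in IF, 6 fell and 15 rose in PS, and 1 fell and 17 rose in IFPS, with medians of -0.33, 0.37 and 0.73. Of all genes, 13.2%, 20.8% and 12.3% fell in these lines and 10.1%, 18.1% and 15.6% rose. The pad-poor class was defined by its low pad level, with a median of 2.59 CPM in wildtype pads. It thus had less room to fall than pad-level and pad-rich members, so the contrast between classes was partly set by their definition. Pad-low members were mixed, with 22 lower and 1 higher in IF, 25 and 15 in PS and 7 and 10 in IFPS. Without IFPS tumor replicate 6, IFPS had 6 pad-poor members lower and 19 higher (median 0.61), and 21 pad-low members lower and 12 higher (median -0.44). Even the tumors with the highest sum of pad-poor members, 1090.1 CPM in IF, 2657 CPM in PS and 3331 CPM in IFPS, lay below every adipocyte library.

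Over the 3 lines together, 24 of 238 members (10.1%) were called lower in all, against 4.99% of all genes tested. A further 66 (27.7%) were lower in IF and PS with no call for IFPS, against 5.06% of all genes, and 43 of the 66 were pad-level. These counts rested on IFPS tumor replicate 6. Without it, 83 members were lower in all 3 lines and 18 in IF and PS with no call for IFPS, against 8.72% and 3.38% of all genes. Another 18 members (7.56%) were called higher in PS and IFPS with no call for IF, against 5.92% of all genes, and 20 were without that library (7.03% of all genes). Only 5 members (2.1%) were called higher in all 3 lines, a smaller share than the 3.65% of all genes. They were ENSRNOG00000057092, ENSRNOG00000022298, ENSRNOG00000001187, ENSRNOG00000018257 and ENSRNOG00000049282, the last of which was pad-low and the others pad-poor. No call was made in any line for 60 members (25.2%), against 45.6% of all genes, or for 50 without IFPS tumor replicate 6 (40.8% of all genes). A call in one line and none in another does not show a difference between lines, so the difference itself was tested.

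That test called 0 of 238 members in each pair of lines (edgeR interaction contrasts), against 0.36% of all genes for PS with IF, 0.464% for IFPS with IF and 0% for IFPS with PS. At an unadjusted p under 0.05 there were 16, 82 and 84 members, where the shares of all genes were 9.6%, 16.4% and 13.7%. DESeq2 called 0, 24 and 18 members and 1.49%, 3.5% and 1.39% of all genes. Without IFPS tumor replicate 6, edgeR called 0, 1 and 0, and 21, 57 and 37 members had an unadjusted p under 0.05. Of all genes in that fit, 0.11% were called higher and 0.425% lower for PS with IF. For IFPS with IF these shares were 0.314% and 0.448%, and for IFPS with PS 0% in either direction. The shares of all genes at an unadjusted p under 0.05 are not given for that fit.

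ENSRNOG00000013552, the most abundant member in wildtype adipocytes, had 13742, 9423 and 7450.2 CPM there. Its lowest, median and highest levels were 3063, 6162 and 17987 CPM in PS pads and 4777, 7957 and 19970.5 CPM in IFPS pads, and the 3 IF pads had 11869.7, 19739 and 14598 CPM. In tumors it had 108, 173, 44.2, 142 and 102 CPM in IF, from 24.3 to 131 CPM with a median of 83.6 CPM in PS, and from 0.549 to 749 CPM with a median of 50.0 CPM in IFPS. No tumor reached any pad, IFPS tumor replicate 6 with 749 CPM included.

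The log2 differences of ENSRNOG00000013552 were -7.10 ± 1.22 SE in IF (edgeR adjusted p = 0.000343), -6.94 ± 0.90 SE in PS (adjusted p = 2.88e-06) and -5.92 ± 0.86 SE in IFPS (adjusted p = 1.77e-05). Wildtype fibroblasts held 318 to 469 CPM of this gene, more than all tumors but IFPS tumor replicate 6. Fibroblasts of the mutated lines held 163 to 299 CPM in IF, 156 to 276 CPM in PS and 372 to 471 CPM in IFPS. Those of IF overlapped IF tumors, which reached 173 CPM, and those of PS lay above all PS tumors.

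ENSRNOG00000010079, the second most abundant, behaved differently in that library. Pads held from 2753 to 13872 CPM over all 4 lines. IF tumors had 1.70, 888, 17.7, 5.09 and 74.8 CPM, PS tumors from 0.980 to 367 CPM with a median of 22.3 CPM, and IFPS tumors from 2.08 to 24988 CPM with a median of 57.6 CPM. IFPS tumor replicate 6, at 24988 CPM, was above every pad and every adipocyte library, and IFPS tumor replicates 5 and 9 followed at 1779.6 and 974 CPM. The log2 difference was -6.80 ± 1.64 SE in PS (adjusted p = 0.00176), -4.66 ± 2.04 SE in IF (adjusted p = 0.0898) and -0.77 ± 1.38 SE in IFPS (adjusted p = 0.709), and in IFPS it was -4.02 without replicate 6 (adjusted p = 0.0166). The IF difference passed the threshold without IFPS tumor replicate 6 (0.0455), with DESeq2 (0.0241) and without IF tumor replicate 2, at 888 CPM, where it was -8.09 (adjusted p = 0.0197).

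Of the members called lower in all 3 lines and without overlap in at least 2, ENSRNOG00000002911 and ENSRNOG00000011892 had the largest log2 fall averaged over the lines. ENSRNOG00000002911 had 29.3, 87.8 and 38.5 CPM in IF pads, from 35.1 to 183 CPM in PS pads and from 51.6 to 379 CPM in IFPS pads. IF tumors had 0, 0.0443, 0.0950, 0 and 0.0552 CPM, PS tumors had at most 2.82 CPM, and IFPS tumors had at most 2.21 CPM apart from replicate 6 at 113 CPM. Groups did not overlap in IF and PS and overlapped in IFPS through that library. The log2 differences were -10.35 ± 2.39 SE (adjusted p = 0.00333), -7.59 ± 1.44 SE (adjusted p = 0.000181) and -3.29 ± 1.18 SE (adjusted p = 0.0344), the last being -7.95 without replicate 6 (adjusted p = 4.46e-07). With all 9 tumors, the IFPS call was lost with pads 1 to 12 alone (0.344), with pads 13 to 21 alone (0.0948) and when only IFPS libraries were fitted (0.17).

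ENSRNOG00000011892, a pad-rich member at 9.56 to 12.1 CPM in wildtype adipocytes, had 30.7 to 112 CPM in all pads. It had at most 0.276 CPM in IF tumors, at most 0.930 CPM in PS tumors and at most 1.70 CPM in IFPS tumors apart from replicate 6 at 27.4 CPM. Even replicate 6 lay below the lowest IFPS pad. The log2 differences were -8.55 ± 1.72 SE in IF (adjusted p = 0.0013), -8.00 ± 1.21 SE in PS (adjusted p = 1.9e-05) and -3.91 ± 0.99 SE in IFPS (adjusted p = 0.00408), where the call was lost with pads 1 to 12 alone (0.0836) or only IFPS libraries (0.0625). Without replicate 6 the IFPS difference was -7.39 (adjusted p = 5.57e-08).

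Among the members that rose, ENSRNOG00000022298 and ENSRNOG00000057092 stayed below the lowest adipocyte library in every tumor. ENSRNOG00000022298 had 316 to 1609 CPM in adipocytes of the 4 lines but only 0.0346 to 0.504 CPM in the pads of the mutated lines. IF tumors had 0.414, 0.488, 5.84, 7.55 and 1.05 CPM, PS tumors from 1.79 to 18.3 CPM with a median of 3.13 CPM, and IFPS tumors from 0.0772 to 5.27 CPM with a median of 1.46 CPM. Tumors lay above pads in IF and PS and overlapped in IFPS. The log2 differences were 3.52 ± 1.05 SE in IF (adjusted p = 0.0169), 4.68 ± 0.80 SE in PS (adjusted p = 6.95e-05) and 3.55 ± 0.76 SE in IFPS (adjusted p = 0.00112).

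ENSRNOG00000057092, the eighth most abundant member, had 1647 to 3915 CPM in adipocytes and 13.6 to 84.0 CPM in pads. IF tumors had 103, 45.5, 362, 336 and 228 CPM, PS tumors 68.6 to 945 CPM with a median of 239 CPM and IFPS tumors 36.3 to 1342 CPM with a median of 205 CPM. Its log2 differences were 2.49 ± 0.89 SE in IF (adjusted p = 0.0403), 2.89 ± 0.65 SE in PS (adjusted p = 0.000934) and 3.42 ± 0.67 SE in IFPS (adjusted p = 0.000449). Tumors lay above pads in IF and PS and overlapped in IFPS. The IF calls of ENSRNOG00000022298 and ENSRNOG00000057092 were lost when any IF pad was left out, with adjusted p between 0.0535 and 0.124, and that of ENSRNOG00000057092 also without IF tumor replicate 3 (0.0743) or 4 (0.0717) or with pads 1 to 12 alone (0.0614). When only IF libraries were fitted, ENSRNOG00000022298 had an adjusted p of 0.0579, and in IFPS it had 0.0647 with pads 13 to 21 alone.

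ENSRNOG00000007765 was the only member called in opposite directions, and it was chosen after its values were seen. PS pads had 16 to 60.1 CPM and PS tumors 3.14 to 18.9 CPM (log2 difference -1.85 ± 0.72 SE, adjusted p = 0.0398). IFPS pads had 10.2 to 26.3 CPM and IFPS tumors 4.25 to 500.0 CPM with a median of 18.6 CPM (2.05 ± 0.78 SE, adjusted p = 0.0472). The groups overlapped in both lines, and the PS call was lost when any of 9 single libraries was left out (adjusted p between 0.0506 and 0.136). The IFPS call came from IFPS tumor replicate 8 at 500.0 CPM, without which the log2 difference was 0.27 (adjusted p = 0.723).

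IFPS tumor replicate 6 lay within or above the range of IFPS pads for most members. It exceeded all 6 IFPS pads for 128 of 242 members, of which 50 were pad-level, 40 pad-low, 28 pad-poor and 10 pad-rich, and lay below all of them for 25. Of the 17227 genes tested between tumors and pads, it exceeded all IFPS pads for 20.1% and lay below all for 39%. The other 8 IFPS tumors lay above all IFPS pads for 13 to 64 members and below all for 111 to 170, and for 21.8% to 45.3% and 22.5% to 50.9% of those genes. Its pad-level sum was 67946 CPM, against 13809 to 61056 CPM in pads and 560.1 to 5029 CPM in the other 22 tumors. Its pad-rich sum was 11926 CPM, where pads reached 9476 CPM, and its pad-low sum was 12511 CPM, where pads reached 6488 CPM. ENSRNOG00000013552 did not follow, since its 749 CPM lay below every pad.

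Tumors of the 3 lines were compared last, with 229 members tested among 15966 genes. Between PS and IF tumors 0 members were higher and 1 lower, against 0.551% and 1.93% of all genes. Between IFPS and IF tumors 6 were higher and 1 lower, against 1.43% and 2.81%. Between IFPS and PS tumors 0 members were called higher and 0 lower, against 0% of all genes in either direction, with 104 members at an unadjusted p under 0.05 where 22.2% of all genes had one, and DESeq2 called 45 (7.43% of all genes). That 0 changed to between 41 and 49 members called when any of IFPS tumor replicates 1, 2, 3, 4 or 7 was left out. The shares of all genes in these fits are not given here, so the change need not be particular to the members. Without IFPS tumor replicate 6, it stayed at 0, with 56 of 228 members at an unadjusted p under 0.05. The IFPS and IF comparison then had 4 higher and 7 lower, against 1.62% and 2.99% of all genes.

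The member that differed between PS and IF was ENSRNOG00000008422. It had 14.6, 43.7, 66.8, 39.6 and 9.44 CPM in IF tumors and 0.154 to 5.42 CPM with a median of 0.382 CPM in PS tumors, without overlap (log2 difference -4.77 ± 1.12 SE, edgeR adjusted p = 0.0256). IF tumors exceeded IF pads, which had 8.38, 9.62 and 4.65 CPM, in all but 1 case, since IF tumor replicate 5 at 9.44 CPM lay within them. Without IF tumor replicate 2 the adjusted p was 0.072.

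Of the 6 members higher in IFPS than in IF tumors, ENSRNOG00000006715 had 1.12, 0.443, 0.190, 0.360 and 1.10 CPM in IF and 1.69 to 20.1 CPM with a median of 2.80 CPM in IFPS (3.38 ± 0.89 SE, adjusted p = 0.0333). ENSRNOG00000042230 had 0, 0.266, 0.285, 0.308 and 0.276 CPM in IF and 0.347 to 4.84 CPM with a median of 1.16 CPM in IFPS (2.86 ± 0.75 SE, adjusted p = 0.0339). Neither overlapped between the lines, although both lost the call when only these 2 groups were fitted (adjusted p = 0.0952 and 0.114). ENSRNOG00000009822 was lower in IFPS, at 6.75 to 31.9 CPM with a median of 19.5 CPM, than in IF, at 31.7, 58.5, 39.0, 58.9 and 51.3 CPM (-1.35 ± 0.28 SE, adjusted p = 0.00707), and the groups overlapped because the highest IFPS tumor exceeded the lowest IF tumor. The count of members called between IFPS and IF was 1 or 2 when any of the 5 IF tumors was left out, 11 without IFPS tumor replicate 6 and 20 without IFPS tumor replicate 8.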

How the data were processed

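Gene counts were taken as deposited by the authors: whole numbers of reads per Ensembl rat gene in 80 libraries. Reads were processed with Trim Galore, STAR 2.5.2b and the build Rnor_6.0, per the submitters' processing notes, which give no order or role. The counting tool, the annotation and the use of strand are not given in the sources used here, so overlapping, antisense and near-identical genes are uncertain. Groups came from the labels, and columns were matched by title. Of 32883 identifiers, 6365 had no count.

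Members, lists and tests were chosen with earlier results of these data known. CPM is the count over the column total. Tests used edgeR 4.0.16 (quasi-likelihood, TMM, filterByExpr) in R 4.3.3, with adjusted p-values over all genes tested and a threshold of 0.05. One fit was made for the 36 libraries of sorted cell types, for 12 adipocytes, 21 pads (set of title numbers, 1 to 12 or 13 to 21, as covariate), 18 pads and adipocytes, 38 pads and tumors, and 23 tumors. SE is the standard error of a log2 difference. The first contrast of each fit was checked on simulated counts, the other contrasts were not, and the outcome is not given here. Alternatives were RLE factors, no filter, DESeq2 1.42.0, only the groups compared, 1 set of pads, no covariate, a replicate block and leaving out each library.

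Without symbols, the rule for named genes allowed 2 identifiers that rose and 2 that fell. It was applied to each comparison, and other identifiers (the most abundant members, single calls, large ranges) were chosen after their values were seen. The fixed lists of pathway genes and cell type markers could not be matched and were not used here. Intervals are exact binomial at 95%, and depth limits the precision of members at a few counts. All 166 pairs of libraries within a group differed by more than sampling noise (lowest chi-square per degree of freedom 8.7). Same-numbered libraries were checked by the correlation of their deviations from group means over 11802 genes. It exceeded 0.1 in 12 of 12 pairs of MECs and fibroblasts, but in 5 of 12 pairs of pads and adipocytes, 1 of 12 of MECs and adipocytes and 6 of 12 of adipocytes and fibroblasts, so the numbers were not used as pairs in the main tests.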

Additional observations from a re-analysis of the deposited data

Results flagged for a closer look

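In groups of 4 to 10 libraries, 75 sets of values were screened for a highest or lowest library that stood far from the rest, and 29 were singled out. A rate of about 1 in 20 such groups by chance would hold only for roughly normal values. The screen used CPM without a log scale, and nearly every library singled out was a highest one, so the rate by chance is not known. The values below also share libraries and members. No cause was tested.

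IFPS tumor replicate 6 accounted for 8 of them. Against ranges of 4574 to 15058, 1235 to 3946, 714 to 5029 and 1450 to 3994 CPM in the other 8 IFPS tumors, its summed levels were 93532 CPM over all members, 12511 CPM over pad-low, 67946 CPM over pad-level and 11926 CPM over pad-rich members. Its single members were ENSRNOG00000013552 at 749 CPM (others 0.549 to 251 CPM), ENSRNOG00000010079 at 24988 CPM (others 2.08 to 1779.6 CPM), ENSRNOG00000002911 at 113 CPM (others 0 to 2.21 CPM) and ENSRNOG00000011892 at 27.4 CPM (others 0 to 1.70 CPM).

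Other IFPS tumors stood out in pad-poor members or in 1 gene. IFPS tumor replicate 9 had 3331 CPM of pad-poor members (others 398 to 1675 CPM) and 1342 CPM of ENSRNOG00000057092 (others 36.3 to 549 CPM). IFPS tumor replicate 8 had 500.0 CPM of ENSRNOG00000007765 (others 4.25 to 59.6 CPM).

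PS tumor replicate 8 had 2657 CPM of pad-poor members (others 609 to 1424 CPM), 2480.4 CPM of pad-level members (others 560.1 to 1179 CPM), 367 CPM of ENSRNOG00000010079 (others 0.980 to 80.1 CPM), 2.82 CPM of ENSRNOG00000002911 (others 0 to 0.955 CPM) and 945 CPM of ENSRNOG00000057092 (others 68.6 to 378 CPM). PS tumor replicate 9 had 18.3 CPM of ENSRNOG00000022298 (others 1.79 to 5.36 CPM). In IF, tumor replicate 2 had 3546 CPM of pad-level members (others 1083 to 1381 CPM) and 888 CPM of ENSRNOG00000010079 (others 1.70 to 74.8 CPM), while tumor replicate 1 had 3936 CPM of pad-rich members (others 737 to 1510.5 CPM) and 0 CPM of ENSRNOG00000042230 (others 0.266 to 0.308 CPM).

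Among pads, IFPS pad replicate 6 had 76340.2 CPM of all members (others 29556 to 45067 CPM), 5450.2 CPM of pad-low members (others 3865 to 4401 CPM), 12221 CPM of ENSRNOG00000010079 (others 3293 to 6569 CPM) and 379 CPM of ENSRNOG00000002911 (others 51.6 to 132 CPM). IFPS pad replicate 5 had 0.504 CPM of ENSRNOG00000022298 (others 0.0346 to 0.187 CPM). PS pad replicate 1 had 6488 CPM of pad-low members (others 3055 to 4098 CPM) and 60.1 CPM of ENSRNOG00000007765 (others 16 to 26.8 CPM), and wildtype pad replicate 5 had 21158 CPM of ENSRNOG00000013552 (others 6011 to 10381 CPM).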

How the results depend on the processing

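Of the alternatives other than leaving out a library, RLE factors, no low-count filter and no pad covariate kept every count of called members within 1.5 times. DESeq2 called 2 members lower in IFPS than in PS adipocytes (0.336% of all genes), 1 in PS pads (0.495%) and 2 in IFPS pads (0.128%). It called 8 members higher in IF tumors than in pads, against 15.4% of all genes. For the tumor and pad difference it called 24 (IFPS with IF, 3.5% of all genes) and 18 (IFPS with PS, 1.39%). Between tumors it called 14 (PS with IF, 6.51% of all genes), 47 (IFPS with IF, 12.1%) and 45 (IFPS with PS, 7.43%). The 14 were 6.45% of members, near the share of all genes. With only the groups compared, 34 members were higher in PS than in IF adipocytes and 4 lower in IFPS than in PS, 18 rose and 19 fell in IFPS tumors, and 11 (PS with IF) and 3 (IFPS with IF) differed between tumors. With pads 1 to 12 alone, 3 rose in IF tumors, 19 in PS and 15 in IFPS, where 13 fell. With pads 13 to 21 alone, 17 rose in PS and 12 in IFPS, where 15 fell. Shares of all genes are not given for the last 3 settings, so their counts need not be particular to the members. The cause of all these shifts was not tested, though each of the last 3 settings uses fewer libraries. Values of single named members stayed on their side of the threshold in 201 of these fits, passed it in 4 and lost it in 18, and none reversed.

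By the check above, the correlation exceeded 0.1 in 12 of 12 pairs of MECs and fibroblasts and in 5 of 12 pairs of pads and adipocytes (median 0.0913). A value under 0.1 does not show that libraries were unpaired. ENSRNOG00000019050 was low in PS numbers 10 and 12 in adipocytes, MECs, fibroblasts and pads alike, so pairing with adipocytes remains undecided. With the title numbers as a replicate block, members called were 242 and 242 in IF, 241 and 242 in PS and 241 and 241 in IFPS against MECs and fibroblasts, 26 were higher and 177 lower in pads than in adipocytes, and ENSRNOG00000010079 had an adjusted p of 0.0434 in that comparison.

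Leaving out 1 library gave, per count of called members, 241 to 242 (IF), 240 to 242 (PS) and 241 to 242 (IFPS) for the enrichment, 33 to 112 higher and 33 to 42 lower (PS with IF adipocytes), 34 to 104 and 36 to 52 (IFPS with IF), 0 to 1 and 0 (IFPS with PS, 1 without PS replicate 2), 0 in pads of each line, 25 to 32 and 169 to 180 (pads with adipocytes), 1 to 8 and 71 to 114 (IF tumors), 27 to 34 and 112 to 134 (PS tumors), and 24 to 37 and 28 to 112 (IFPS tumors, 112 without replicate 6). The count that rose in IF tumors was 1 without IF pad replicate 1, 2 or 3, 3 and 2 without IF tumor replicates 3 and 4, and 8 without IFPS tumor replicate 8. For the difference between tumor and pad, IFPS with IF gave 0 to 4 (1 without IFPS tumor replicates 4, 5 or 6 or PS replicate 5, 2 without IFPS replicate 7 or PS replicate 8, 4 without IFPS replicate 8) and the others 0. Between tumors, PS with IF gave 0 (without IF replicate 2) to 4 (without IFPS replicate 8). IFPS with IF gave 1 to 20, with 1 or 2 when any IF tumor was left out, 4 without PS replicates 2, 6 or 7, 11 without IFPS replicate 6 and 20 without IFPS replicate 8. IFPS with PS gave 0 to 49, with 48, 49, 41, 42 and 46 without IFPS replicates 1, 2, 3, 4 and 7. Single named members kept their side in 1237 such fits, passed it in 9 and lost it in 40. Among fits without 1 library, shares of all genes are given only for the one without IFPS tumor replicate 6, so other shifts in these counts need not be particular to the members. Members below 1 CPM rest on few counts, and differences among them were at the limit of this depth.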
